A study of Homo sapiens with 21 samples.

Results

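RNA-seq was compared between all 7 subcutaneous tumors from Oxy186-treated mice and all 7 from the Control group, which are 14 of the 21 tumors of the series, and no tumor was left out. Tumors were taken by their treatment label alone, so the choice of tumors used no expression value. Each tumor was grown from A549-Luc2, a luciferase-marked derivative of the human lung adenocarcinoma line A549, in the flank of female athymic nu/nu mice of 6 to 8 weeks, which lack mature T cells. Mice of the Oxy186 group received Oxy186 at 50 mg/kg by daily oral gavage in DMSO, ethanol, PEG400 and corn oil, and Control mice received the same formulation without it. Both groups therefore share the cell line, the host strain and the vehicle, and no tumor was untreated. Each group began with 10 mice, the labels do not state that each tumor came from its own mouse, and p-values measure the spread between these 14 libraries.

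Oxysterols are oxidised forms of cholesterol, and Oxy186 is a semi-synthetic one that was developed as an inhibitor of Hedgehog (HH) signaling. In HH signaling, ligand binding releases the transducer Smoothened (SMO), which activates GLI transcription factors. In canonical WNT signaling, ligands bind Frizzled receptors and their co-receptors, the AXIN-containing destruction complex is switched off, and β-catenin joins TCF factors on target genes. Natural oxysterols are also ligands of the liver X receptors (LXR), which switch on sterol export genes, and they restrain the SREBP factors that drive cholesterol synthesis.

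Human genes received 13818998 to 17865119 counts per library in Control tumors (median 15082627) and from 14008787 to 15776682 in Oxy186-treated tumors (median 15031344). No 2 tumors of a group agreed within sampling noise (the lowest chi-square was 12.8 times its degrees of freedom), and each was taken as 1 replicate. The 11 epithelial and A549 markers were counted in every library and took 1.70% to 2.28% of counts in Control and 1.69% to 2.7% in Oxy186-treated tumors. CDKN2A, which is deleted in A549, was at 0 in all 14 libraries. Of 8 alveolar type II markers, 4 had at most 10 counts in any library, among them the lung surfactant gene SFTPC with at most 4. ABCA3 had 322 to 1313 counts and SFTPD 20 to 72. Fibroblast markers took 0.0116% to 0.0238% of counts in Control and 0.0103% to 0.0234% in Oxy186-treated tumors. Of these 10 genes, 4 had at most 10 counts in any library, with POSTN at 0 in all, while LUM had 935 to 3348 and COL1A1 256 to 1031. Endothelial and immune markers took at most 0.00069% and 0.00321% in any tumor. Only human alignments were counted, so these values do not measure mouse host cells. In bulk tumor RNA, fewer cells of a type and less RNA per cell cannot be told apart.

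The question asked of these data was which human genes differed between Oxy186-treated and Control tumors. No gene passed the threshold, which was a fold change over 2 and a p of no more than 0.05 after Benjamini-Hochberg adjustment, in edgeR's quasi-likelihood test. Of 16291 genes tested, 0 were called (0%), and the smallest adjusted p was 0.836. An unadjusted p under 0.05 was found for 632 genes (3.88%), of which 301 were higher in Oxy186-treated tumors (1.85%) and 331 were lower (2.03%). A p that is uniform over these genes would give 814.55. limma voom and DESeq2 also called 0 genes, with 1114 and 765 at an unadjusted p under 0.05. With limma voom most of these genes were lower in Oxy186-treated tumors, while DESeq2 split them almost evenly. The near balance of directions in edgeR was thus not shared by limma voom, the method the study used. With 1 tumor left out at a time 0 genes were called throughout, and the edgeR count at an unadjusted p under 0.05 ran from 329 without Oxy186-treated r4 to 2547 without Oxy186-treated r6.

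Libraries can differ in how well GC-rich transcripts are recovered, so the comparison was repeated after correcting each library for its trend of counts with exon GC content. The trend was fitted as a spline and entered as an offset in the same edgeR test. The cause of these trends was not tested. A difference between the groups that follows GC content would be removed along with them. With this GC correction 0 of 16291 genes were called (0%), the smallest adjusted p was 0.842, and 962 genes (5.91%) had an unadjusted p under 0.05. Of these, 538 were higher (3.3%) and 424 were lower (2.6%). A p that is uniform over the tested genes would again give 814.55. limma voom called 0 genes with the correction and had 998 at an unadjusted p under 0.05. DESeq2 called 1 gene, PRR34-AS1 (adjusted p = 0.0179), and had 1061 at that level.

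These 14 tumors nonetheless bounded most genes. Without the correction, the 95% interval of the fold change lay inside a 2-fold change in either direction for 13550 genes (83.2%), and with it for 14615 genes (89.7%). Among the 8743 genes whose mean log2 CPM was 4 or more, the shares were 93.8% and 98.5%. The narrower bound of 1.5-fold held 48.2% and 62.4% of all genes. The median standard error of a log2 fold change was 0.20 without and 0.16 with the GC correction.

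Spread was larger among the Oxy186-treated tumors than among the Control tumors. Without the correction the SD of log2 CPM was larger in the Oxy186 group for 74.2% of genes, with a median SD of 0.40 against 0.31. With the correction the share was 65.7% and the median SDs were 0.32 and 0.27. The GC slope of a library, which is how far its log2 CPM, set against the mean of all libraries, moves per 10 percentage points of exon GC, showed the same spread. It was -0.11 ± 0.37 (SD, n = 7) in the Oxy186 group and 0.11 ± 0.18 (SD, n = 7) in the Control group. In the Oxy186 group r3 had the lowest slope at -0.52, followed by r4 at -0.49, r1 at -0.31 and r2 at -0.19. The slopes of r5, r7 and r6 were 0.065, 0.17 and 0.48. Control slopes ran from -0.16 to 0.39 with a median of 0.071, so 4 Oxy186-treated tumors lay below every Control tumor, 1 lay above, and 2 lay within. The group means did not differ beyond that spread (p = 0.166 in a two-sided exact permutation test, where 7 against 7 tumors can reach 0.000583). Without Oxy186-treated r6, the tumor with the highest slope, the difference in slope was -0.33 in place of -0.23 (p = 0.0321 by the same exact test). With any other tumor left out, p in that test ran from 0.112 (without Control r7) to 0.307 (without Oxy186-treated r3).

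**Figure D1:**
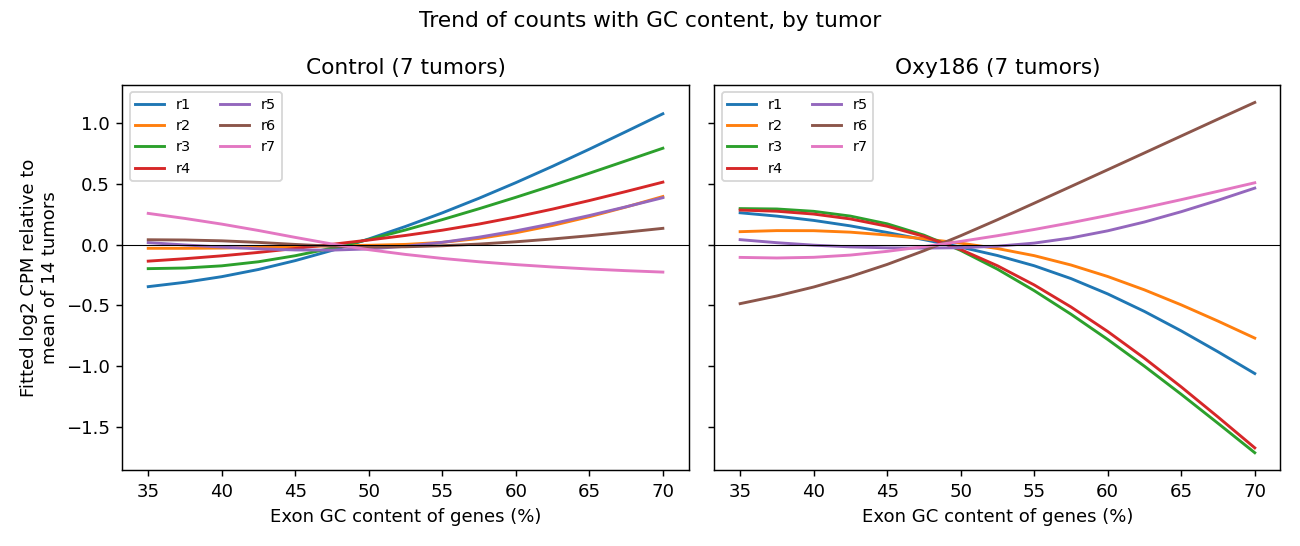
Fitted trend of log2 CPM with exon GC content (%) in each of the 7 Control tumors (left) and the 7 Oxy186-treated tumors (right), 1 line per tumor, relative to the mean of all 14 tumors. The Oxy186 lines fan out at high GC, with r3 and r4 lowest and r6 highest, and the 7 Control lines lie between those of r2 and r6 at the highest GC content.

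The largest pattern in the whole profile followed this GC slope. The first principal component of log2 CPM over the 16291 genes held 43.4% of the variance, with scores of 17.2 ± 50.7 (SD, n = 7) in Oxy186-treated and -17.2 ± 21.1 (SD, n = 7) in Control tumors. Scores ran from -56.4 to 73.0 and from -47.5 to 14.9, and the means did not differ beyond this spread (two-sided exact permutation test, p = 0.126). Without Oxy186-treated r6 the difference was 47.2 in place of 34.4 (p = 0.0326 by the same exact test). With any other tumor left out, p in that test ran from 0.0746 (without Oxy186-treated r7) to 0.235 (without Oxy186-treated r4). Over the 14 tumors Pearson's r between the score and the GC slope was -0.99, as a description of 2 measures taken from the same counts. After removal of each library's GC trend the first component held 23.6% of the variance, and the groups did not differ on it beyond the spread either (two-sided exact permutation test, p = 0.237). Its scores still had a Pearson's r of -0.66 with the GC slope and 0.76 with the first component before removal. It is therefore not an independent second look.

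**Figure D2:**
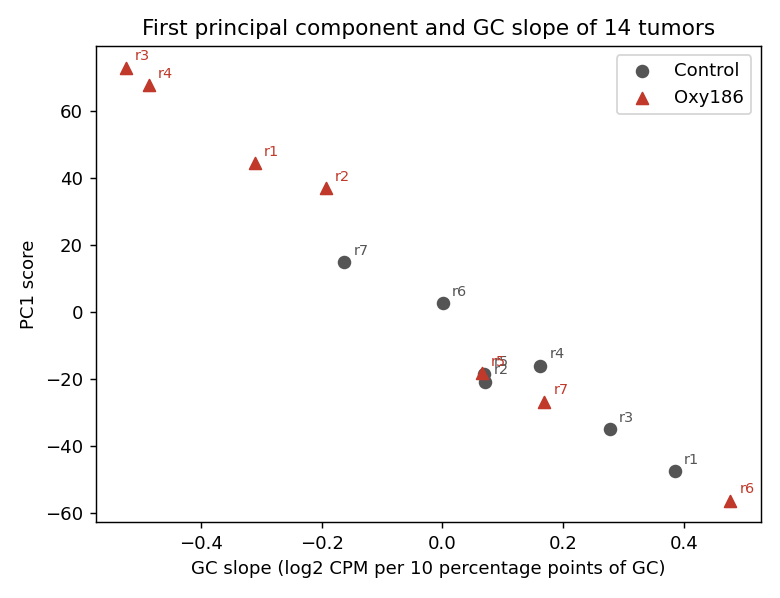
First principal component score of log2 CPM against GC slope (log2 CPM per 10 percentage points of exon GC) for 7 Control tumors (circles) and 7 Oxy186-treated tumors (triangles), each labelled by its replicate. Oxy186-treated tumors stand at both ends, from r3 at a score of 73.0 to r6 at -56.4, and r5 and r7 lie among the Control tumors.

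Fold changes between the groups carried the same trend when genes were put in 10 bins of equal size by exon GC content. In the lowest bin (23.1% to 38.5%) the median log2 fold change was 0.13, and in the highest bin (60.8% to 76.0%) it was -0.36. With the correction the medians of the 10 bins lay between 0.00 and 0.03, which follows from how it was made, as it was fitted on exon GC content. In the highest bin, 92 of the 93 genes at an unadjusted p under 0.05 were lower without the correction, and 132 of 211 were higher with it. The lowest bin, also of 1627 genes, held 45 genes at that level without and 52 with the correction. Genes at that level with the correction were thus more frequent at high GC content. The median SD within the Oxy186 group grew from 0.36 in the lowest bin to 0.83 in the highest, while in the Control group it was 0.29 and 0.43. The sign of the fold change differed between the 2 fits for 4005 genes, and 410 genes had an unadjusted p under 0.05 in both, all with the same sign.

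**Figure D3:**
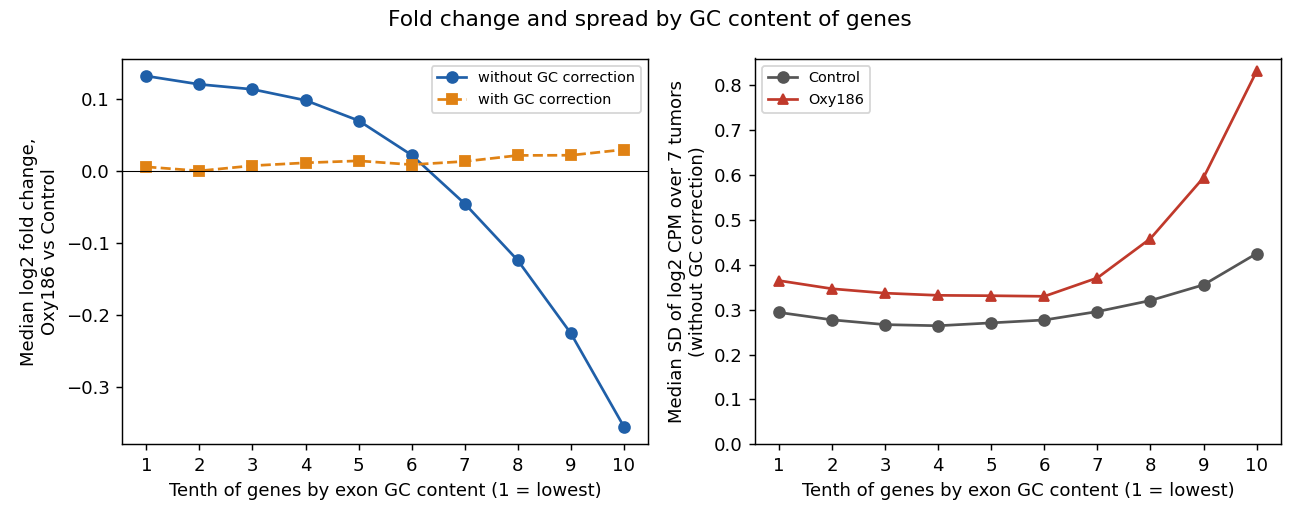
Genes in 10 bins by exon GC content, from lowest (1) to highest (10). Left, the median log2 fold change of Oxy186-treated against Control tumors drops from 0.13 to -0.36 without the GC correction. It stays between 0.00 and 0.03 with the correction, which was fitted on exon GC content and so removes this trend by construction. Right, the median SD of log2 CPM over 7 tumors grows to 0.83 in the Oxy186 group and 0.43 in the Control group.

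The coding starts of 3 genes show what GC content means for these transcripts. PPDPF and UGT2B15 have the highest and lowest exon GC content of the protein-coding genes with the smallest p-values listed below, 68.3% and 38.6%, and JUND, at 69.9%, took opposite signs in the 2 fits. The first 120 coding bases of each canonical transcript are given 5′ to 3′ from GENCODE 44 on GRCh38, with every G and C in capitals.
PPDPF: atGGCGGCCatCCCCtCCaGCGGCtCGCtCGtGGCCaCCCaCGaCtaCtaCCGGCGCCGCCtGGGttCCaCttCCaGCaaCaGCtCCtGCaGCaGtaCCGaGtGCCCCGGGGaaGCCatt
JUND: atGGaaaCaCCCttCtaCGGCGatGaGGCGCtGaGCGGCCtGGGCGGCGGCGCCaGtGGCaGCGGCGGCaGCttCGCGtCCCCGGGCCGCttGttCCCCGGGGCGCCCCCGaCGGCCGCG
UGT2B15: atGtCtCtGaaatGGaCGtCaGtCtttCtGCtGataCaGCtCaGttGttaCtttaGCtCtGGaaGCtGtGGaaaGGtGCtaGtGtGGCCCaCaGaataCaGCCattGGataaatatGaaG
G and C make up 67.5% of the PPDPF stretch, 76.7% of that of JUND and 44.2% of that of UGT2B15. PPDPF lies at chr20:63520765-63522206 on the forward strand, JUND at chr19:18279694-18281622 on the reverse strand and UGT2B15 at chr4:68646597-68670652 on the reverse strand. JUND, an AP-1 transcription factor subunit, had log2 CPM of 5.93, 6.71 and 7.38 (lowest, median and highest) in Control and 5.88, 6.20 and 7.17 in Oxy186-treated tumors, and 6.13, 6.32 and 6.68 against 5.41, 6.96 and 7.87 with the correction. The groups overlapped in both. Its log2 fold change was -0.49 (95% interval -1.01 to 0.02) without the correction and 0.58 (-0.02 to 1.18) with it.

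Genes are described next by their log2 CPM in the tumors and their edgeR log2 fold change, and none of them passed the threshold. Every gene named without the correction had a Benjamini-Hochberg adjusted p of at least 0.836, and with it of at least 0.842. IFITM1, an interferon-induced membrane protein that restricts virus entry, had log2 CPM of 1.26, 1.4 and 1.89 (lowest, median and highest) in Control and 1.54, 2.19 and 2.92 in Oxy186-treated tumors. The groups overlapped, with 5 of 7 Oxy186-treated tumors above every Control tumor. The group difference on the log2 scale was 0.85 (standard error 0.23, unadjusted p = 0.00172 in edgeR's quasi-likelihood test), and 1.18 with the GC correction. IFITM1 lies at chr11:310041-315272 on GRCh38 and shares 21.1% of its exon bases with a gene on the same strand, so its count is uncertain.

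The secreted chemokine CXCL17, which is made by mucosal epithelium, had log2 CPM of -0.45, 0.36 and 1.4 in Control and -0.49, 2.28 and 2.51 in Oxy186-treated tumors. Of the Oxy186-treated tumors 5 were above every Control tumor, and 1 was below every one. The log2 fold change was 1.4 (standard error 0.42, unadjusted p = 0.00382 in edgeR's quasi-likelihood test) and 1.31 with the correction. IFI16, a nuclear sensor of DNA, was between 3.98 and 4.26 in Control tumors (median 4.11) and between 4.09 and 4.95 in Oxy186-treated tumors (median 4.59), with 6 of 7 above every Control tumor. On the log2 scale the fold change was 0.44 without and 0.31 with the correction.

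SLC4A8, a sodium-driven chloride bicarbonate exchanger, lay between 0.70 and 2.02 in Control tumors (median 1.80) and between 1.94 and 2.37 in Oxy186-treated tumors (median 2.26). The SDs were 0.55 and 0.16, and 6 of 7 treated tumors were above every Control tumor. The log2 fold change was 0.72, and 0.66 with the correction. The p21-activated kinase gene PAK3 had a log2 fold change of 0.91 (0.81 with the correction), and UGT2B15, an enzyme that conjugates steroids with glucuronic acid, 0.90 (0.75). UGT2B15 has close paralogs, which the counting could confuse. The other 4 genes of the 10 with the smallest p on the higher side were noncoding or pseudogenes, PRR34-AS1 (0.88), U47924.3 (0.71), RPL6P27 (0.65) and GTF2IP4 (0.61), and their counts are uncertain.

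On the lower side, the semaphorin SEMA4B had log2 CPM of 7.35, 7.90 and 8.20 in Control and 6.66, 7.24 and 7.75 in Oxy186-treated tumors. The groups overlapped, and 4 of 7 treated tumors were below every Control tumor. Its log2 fold change was -0.60 (standard error 0.16, unadjusted p = 0.00179 in edgeR's quasi-likelihood test) and -0.32 with the correction. FXYD5, a regulator of the sodium-potassium pump that weakens cell adhesion, had 6.27, 6.99 and 7.41 in Control and 5.86, 6.04 and 6.86 in treated tumors, with 5 of 7 below every Control tumor. The log2 fold change was -0.64, and -0.49 with the correction.

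GDF15, a stress-induced cytokine and p53 target, had log2 CPM of 4.13, 5.65 and 6.46 in Control and 3.05, 4.15 and 5.02 in treated tumors. The ranges overlapped widely, with 3 of 7 treated tumors below every Control tumor, and the log2 fold change was -1.16 (-0.80 with the correction). MRPL10, a protein of the mitochondrial ribosome, had 6.14, 6.29 and 6.65 in Control and 5.14, 5.89 and 6.27 in treated tumors, with 6 of 7 below every Control tumor. The fitted log2 fold change was -0.49 and -0.45 with the correction, after which its groups no longer overlapped.

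The other 6 genes with the smallest p on the lower side included 3 transporters. SLC6A8 imports creatine (log2 fold change -1.11, or -0.65 with the correction), SLC43A2 carries neutral amino acids (-0.82 and -0.60) and ATP2A3 pumps calcium into the endoplasmic reticulum (-0.83 and -0.28). The others were RASD1, a dexamethasone-induced small GTPase (-1.18 and -0.67), ECM1, an extracellular matrix protein (-0.61 and -0.46), and SDR16C5, a retinol dehydrogenase (-0.74 and -0.80). For 9 of these 10 genes the value was closer to 0 with the correction, and SDR16C5, with an exon GC content of 45.7%, was the exception.

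**Figure D4:**
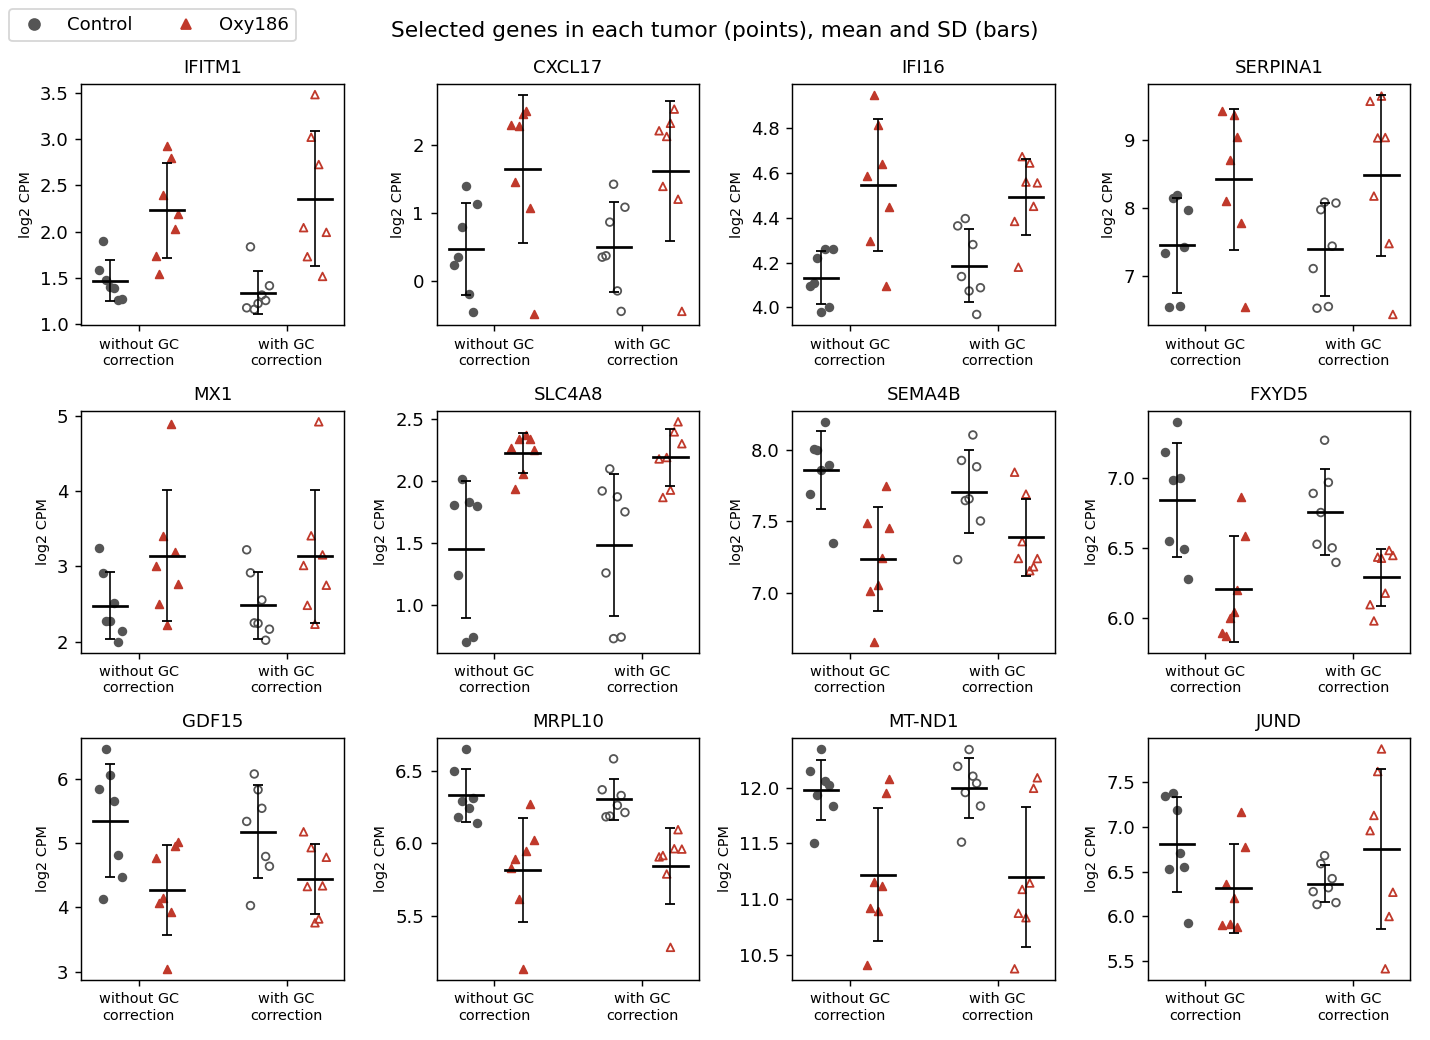
log2 CPM of 12 named genes in each of 7 Control tumors (circles) and 7 Oxy186-treated tumors (triangles), without (filled) and with (open) the GC correction, with the mean and SD as bars. The groups overlap in 12 of 12 genes without the correction and in 11 of 12 with it, where MRPL10 does not overlap, and the JUND mean moves from below to above the Control mean.

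With the correction, 7 of the 10 genes with the smallest p on the higher side had an exon GC content above 60%, and their log2 fold changes without it lay between -0.04 and 0.24. EVPL, a cell envelope protein of squamous epithelium, had 5.14, 5.37 and 5.77 in Control and 5.51, 6.16 and 6.62 in treated tumors after correction. The group difference on the log2 scale was 0.63 (standard error 0.16, unadjusted p = 0.0008 in edgeR's quasi-likelihood test), against 0.10 without. The same held for FAM207A (0.64 against 0.06), the ubiquitin ligase gene RNF40 (0.47 against 0.10), the kinesin light chain gene KLC2 (0.40 against -0.04), LRRC45 (0.63 against 0.07) and the nucleotidase gene NT5C (0.81 against 0.13). RNF40 and NT5C share 40.2% and 60.2% of their exon bases with a gene on the other strand, and whether counting used strand is not given in the sources used here.

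HAGH, a glyoxalase that clears methylglyoxal products, had a log2 fold change of 0.61 with and 0.24 without the correction. UQCC2, an assembly factor of respiratory complex III, had 0.63 and 0.47, and PRR34-AS1 and IFITM1 completed the 10 at 1.16 and 1.18. Those on the lower side with the correction were MRPL10, FXYD5, SDR16C5 and SLC43A2 again, together with LTBP4, TOR4A, PPDPF, TNFSF12, SLC52A1 and GPAA1. LTBP4, which holds latent TGF-β in the matrix, had 6.68, 6.97 and 7.37 in Control and 6.02, 6.44 and 6.82 in treated tumors after correction. Its log2 fold change was -0.49 (standard error 0.13) in place of -0.80 (standard error 0.34). PPDPF had -0.58 (standard error 0.16) in place of -1.01 (standard error 0.47), so the correction made these differences smaller and their errors smaller still.

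Values did not overlap between the groups for 1 gene without the correction (0.00614%), the noncoding gene AL132780.4, with a log2 fold change of 0.72. With the correction they did not overlap for 7 genes (0.043%). If group labels were random, a gene would separate 7 against 7 tumors with a chance of 0.000583, and both shares are below that. Among the 7 genes, named after their values were seen, were MRPL10, SLC43A2, the phosphatase gene PPP5C (0.28), the ubiquitin ligase gene TRIM21 (0.34) and the neuropeptide receptor gene VIPR2 (0.87). None of them passed the threshold.

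The 40 gene lists, which cover pathways, complexes and cell programs, are described by how many tested members had a fold change on either side of 0 and by their median, beside 52.6% of all genes above 0 and 47.4% below without the correction, and 52.9% and 47.1% with it. At an unadjusted p under 0.05, 1.85% of all genes were higher and 2.03% lower without the correction, and 3.3% and 2.6% with it. No member of any list was called in either fit. The median log2 fold change of all genes was 0.02 without and 0.01 with the correction.

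**Figure D5:**
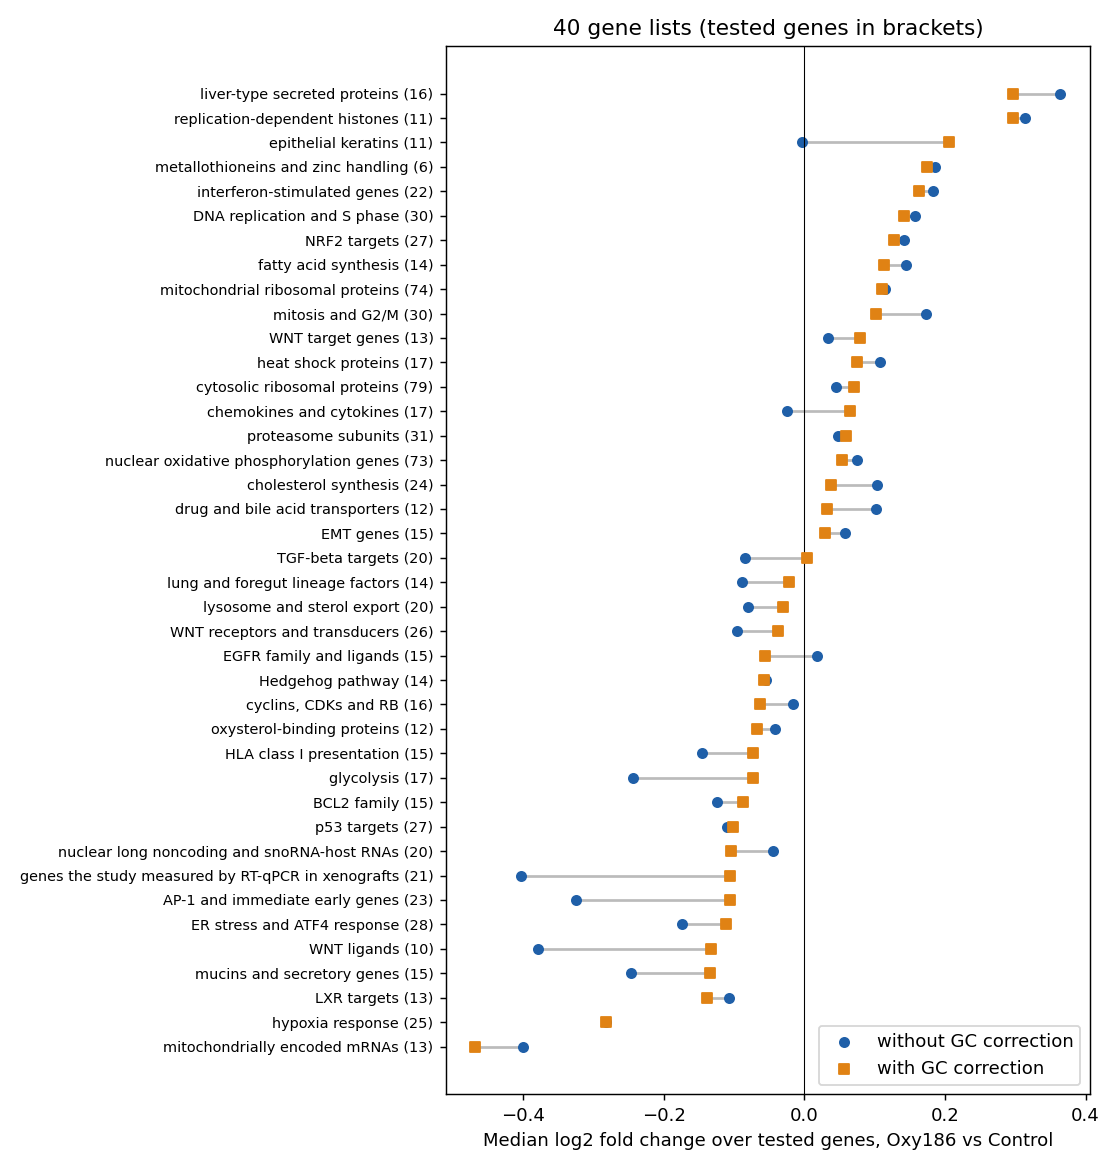
Median log2 fold change of Oxy186-treated against Control tumors over the tested genes of each of 40 lists, without (circles) and with (squares) the GC correction, joined by a line. Mitochondrially encoded mRNAs and hypoxia genes are lowest with the correction at -0.47 and -0.28, liver-type secreted proteins and histones are highest at 0.30 each, and the line is longest for genes measured by RT-qPCR in the study.

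Of the HH genes, 14 of 17 on the list passed the filter on low counts, and 0 had an unadjusted p under 0.05 in either fit. Of these 14, 5 were above 0 and 9 below in each fit, with medians of -0.05 and -0.06. GLI1, a factor and target of the pathway, had log2 CPM of 2.06, 2.81 and 3.63 in Control and 1.92, 2.59 and 3.16 in treated tumors. It had a log2 fold change of -0.40 (95% interval -0.93 to 0.13) and -0.15 with the correction (-0.65 to 0.34). Without Control r6, GLI1 had -0.24 without the correction. The factor GLI2 had -0.18 (-0.58 to 0.22) and 0.13 (-0.19 to 0.45), and the transducer SMO had -0.22 (-0.64 to 0.20) and 0.09 (-0.11 to 0.29). These intervals leave out a 2-fold change of GLI1, GLI2 and SMO in either direction. The intervals were wider for the low-count ligand IHH (-1.0, from -2.09 to 0.10) and the co-receptor BOC (-0.73, from -1.53 to 0.07), and SUFU, a GLI inhibitor, had -0.27 (-0.58 to 0.04).

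Of the WNT ligand genes, 10 of 15 were tested, with 4 above 0 and 6 below in each fit. The median was -0.38 without and -0.13 with the correction, and without it ran from -0.72 to -0.09 under the alternatives. WNT11 (log2 fold change -0.85) and WNT7A (-0.61) had an unadjusted p under 0.05 without the correction, and with it they had -0.45 and -0.46 and were past that level no longer. WNT5B then had 0.73 (unadjusted p = 0.0211 in edgeR's quasi-likelihood test), and 0.46 without. Of 26 tested receptors and transducers, 17 were below 0 without and 15 with the correction, and the medians were -0.10 and -0.04.

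FZD9, a Frizzled receptor of low expression here, had log2 CPM of -0.45, -0.13 and 0.97 in Control and -2.92, -1.93 and 0.20 in treated tumors, with 5 of 7 below every Control tumor. The fitted log2 fold change was -1.53 (95% interval -2.74 to -0.31) and -1.10 with the correction (-1.96 to -0.25). These intervals are not adjusted for the number of genes. As for every gene, the adjusted p of FZD9 in edgeR's quasi-likelihood test was at least 0.836 without and 0.842 with the correction. PORCN and WLS, which act in the lipid attachment and secretion of WNT ligands, had -0.50 and -0.27 without and -0.37 and -0.31 with the correction. AXIN1, the scaffold of the destruction complex, had -0.15 and 0.38. Of 13 tested WNT target genes, 8 were above 0 and 5 below in each fit, 0 had an unadjusted p under 0.05 in either, and the medians were 0.03 and 0.08. Without the correction this median kept its sign in 15 of 24 alternatives and ran from -0.10 to 0.09. AXIN2, a feedback target, had 0.21 (-0.28 to 0.71) and 0.33 (-0.09 to 0.75).

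A list of genes measured by RT-qPCR in xenografts was chosen in the study on these tumors, so its direction is no independent evidence. Without the correction 19 of 21 were below 0, with a median of -0.40, and 1 (PRR7) had an unadjusted p under 0.05. With it 18 of 21 were below 0, the median was -0.11, and 4 had an unadjusted p under 0.05. Those at that level were all lower, beside 2.03% of all genes on that side without and 2.6% with the correction. The median exon GC content of these genes was 60.6%. SLC25A22, a mitochondrial glutamate carrier, had log2 CPM of 3.87, 4.43 and 4.89 in Control and 1.52, 2.94 and 4.85 in treated tumors. After correction these were 3.64, 4.14 and 4.25 against 2.76, 3.44 and 4.16. Its log2 fold change was -0.79 and -0.53, that of the BMP antagonist gene NBL1 -0.79 and -0.63, that of ZNF358 -0.90 and -0.47, and that of FDXR, ferredoxin reductase, -0.61 and -0.44. PRR7, with an exon GC content of 70.1%, had -0.77 and -0.07.

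Of 24 cholesterol synthesis genes, 16 were above 0 without and 17 with the correction, with medians of 0.10 and 0.04. These medians kept their sign in 23 of 24 and 23 of 27 alternatives. Averaged over the 24 genes without the correction, treated tumors ranged from -0.55 to 0.55 relative to the Control mean, with a median of -0.22. Of the treated tumors 4 of 7 lay below that mean, and Control tumors ranged from -0.38 to 0.18. With the correction treated tumors ranged from -0.35 to 0.53, with a median of 0.00. PMVK, phosphomevalonate kinase, had a log2 fold change of 0.23 and 0.50, and EBP, a sterol isomerase, 0.33 and 0.46, and both had an unadjusted p under 0.05 with the correction. EBP shares 36.4% of its exon bases with a gene on the same strand, so its count is uncertain. SREBF2, which encodes the SREBP2 factor, had -0.34 (95% interval -0.79 to 0.12) and -0.19 (-0.46 to 0.08). Of 13 tested LXR receptors and targets, 10 were below 0 without and 8 with the correction. MYLIP, an LXR-induced ubiquitin ligase of the LDL receptor, had 3.09, 3.71 and 3.89 in Control and 3.53, 4.04 and 4.42 in treated tumors, with 6 of 7 above every Control tumor and a log2 fold change of 0.51 and 0.46. The sterol exporter ABCA1 had -0.06 (-0.81 to 0.68) and -0.14 (-0.85 to 0.57), intervals that lie inside a 2-fold change. SREBF1, another LXR target, had -0.51 and -0.29, the lipid transfer protein PLTP -0.62 and -0.33, and the receptors NR1H2 and NR1H3 -0.50 and 0.16 without and -0.29 and 0.37 with the correction.

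Mitochondrially encoded mRNAs, which specify subunits of the respiratory chain, lay below 0 almost throughout. Of 13, 12 were below 0 without the correction (median -0.40) and 13 with it (median -0.47), and 8 and 7 had an unadjusted p under 0.05, beside 2.03% and 2.6% of all genes on that side. MT-ND1, a complex I subunit, had log2 CPM of 11.50, 12.03 and 12.35 in Control and 10.41, 11.12 and 12.08 in treated tumors. On the log2 scale the fold change was -0.67 (standard error 0.23) and -0.70 with the correction. MT-CYB had -0.45 and -0.49, MT-ATP8, which overlaps MT-ATP6, -0.40 and -0.49, and MT-CO1, a complex IV subunit, 0.00 and -0.06. Averaged over the 13 genes relative to the Control mean, the Oxy186-treated tumors ranged from -0.81 in r1 and r4 to 0.10 in r7, and the Control tumors from -0.18 to 0.29. The 13 mRNAs took 6.98% to 9.13% of counts in Control and 5.39% to 8.17% in treated tumors. They come from 1 genome and are transcribed together, so they are not 13 separate observations.

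Of 73 nuclear genes of the respiratory chain, 48 were above 0 and 25 below without the correction and 46 and 27 with it. The medians were 0.07 and 0.05. An unadjusted p under 0.05 was found for 8 and 10, all higher, beside 1.85% and 3.3% of all genes on that side. Averaged over these 73 genes, treated tumors ranged from -0.44 in r1 and -0.35 in r4, both below every Control tumor, to 0.37 in r3, and Control tumors from -0.33 to 0.45. The tumors r1 and r4 were thus lowest for both the mitochondrially encoded and the nuclear genes, and without r3 the medians of the nuclear genes were -0.014 and -0.015. NDUFB3 and NDUFB8, complex I subunits, had log2 fold changes of 0.56 and 0.49 without and 0.44 and 0.55 with the correction. ATP5ME, an ATP synthase subunit that shares 61.3% of its exon bases with a gene on the other strand, had 0.45 and 0.78. Of 74 tested mitochondrial ribosomal protein genes, 55 and 59 were above 0. At that level 8 were higher and 1 lower without and 9 higher and 1 lower with the correction. These stand beside 1.85% and 3.3% of all genes higher and 2.03% and 2.6% lower. Averaged over these 74 genes without the correction, treated tumors ranged from -0.26 in r4 to 0.34 in r3. Control tumors ranged from -0.32 to 0.39, so every treated tumor lay within the Control range. With the correction r3, at 0.48, was the only treated tumor above every Control tumor. MRPL2 had 0.48 and 0.52, MRPS18C 0.64 and 0.49, and MRPL10 was the lower one. Without Oxy186-treated r3, MRPS18C had 0.36 and 0.30 and RPL11, a cytosolic ribosomal protein gene, 0.44 without the correction. Of 79 cytosolic ribosomal proteins, 48 and 50 were above 0, with RPL11 at 0.68 and 0.64 and RPL10 at -0.56 and -0.47. Ribosomal protein genes have many processed pseudogenes, so their counts are uncertain.

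Hypoxia genes were below 0 in 24 of 25 cases without the correction and in 23 of 25 with it, and the median was -0.28 in each. Of these, 1 and 2 had an unadjusted p under 0.05. PFKFB4, a regulator of glycolytic flux, had log2 CPM of 3.72, 4.44 and 5.12 in Control and 2.87, 3.45 and 4.56 in treated tumors, with a log2 fold change of -0.73 and -0.61. The oxygen sensor EGLN3 had -0.64 and -0.70, carbonic anhydrase CA9 -0.64 and -0.42, the glucose transporter SLC2A1 -0.48 and -0.43, and INSIG2 -0.12 and -0.25. Averaged over the 25 genes, treated tumors ranged from -0.80 to 0.12 and Control tumors from -0.59 to 0.64, so the groups overlapped. Of 17 glycolysis genes, 14 were below 0 without and 9 with the correction, with medians of -0.24 and -0.07. The hexokinase gene HK2 had -0.88 and -0.86 and the aldolase genes ALDOA and ALDOC had -0.82 and -0.72 without and -0.75 and -0.59 with it. Without Control r5, HK2 had -0.52 and -0.49, and SLC2A1 had -0.27 with the correction. ALDOA shares 42.8% of its exon bases with a gene on the same strand.

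Among proliferation genes most fold changes were above 0, and none had an unadjusted p under 0.05. Of 30 DNA replication and S phase genes, 26 were above 0 without and 29 with the correction, with medians of 0.16 and 0.14. Of 30 mitosis genes the counts were 24 and 25, with medians of 0.17 and 0.10. Averaged over each list, every treated tumor lay within the Control range in both fits. Without the correction S phase averages ran from -0.33 to 0.55 in treated and from -0.48 to 0.66 in Control tumors. Mitosis averages ran from -0.38 to 0.63 and from -0.76 to 0.79. Under the alternatives the mitosis median ran from 0.045 to 0.37 without the correction, and with it from 6.25e-05 (without Control r2) to 0.27. MKI67, the proliferation antigen Ki-67, had log2 CPM of 6.00, 6.79 and 7.59 in Control and 6.35, 7.16 and 7.56 in treated tumors, so the treated range lay within that of Control. It had a log2 fold change of 0.23 (95% interval -0.26 to 0.71) and 0.20 (-0.27 to 0.66). The replication factor RFC4 had 0.36 (-0.04 to 0.76), the ribonucleotide reductase subunit RRM2 0.32 (-0.18 to 0.82) and the kinetochore protein CENPF 0.34 (-0.15 to 0.84) without the correction. The 95% intervals of 29 of 30 S phase genes and 30 of 30 mitosis genes lay inside a 2-fold change without it.

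Of 27 p53 targets, 20 were below 0 without and 21 with the correction, with medians of -0.11 and -0.10. CDKN1A, the cell cycle inhibitor p21, had log2 CPM of 6.34, 6.52 and 6.78 in Control and 4.97, 5.95 and 6.45 in treated tumors. Its log2 fold change was -0.64 (standard error 0.21) and -0.49 (standard error 0.15). CDKN1A, GDF15 and FDXR were the targets at an unadjusted p under 0.05 in at least 1 of the fits. Of 16 tested cyclin, CDK and RB genes, 7 and 6 were above 0, and the MYC partner MAX had -0.33 and -0.34 and the CDK4 inhibitor CDKN2C 0.10 and 0.34.

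Of 23 tested AP-1 and immediate early genes, which respond within minutes to growth factors and stress, 22 were below 0 without the correction and 18 with it, with medians of -0.32 and -0.11. At an unadjusted p under 0.05 there were 6 and 3, all lower, beside 2.03% and 2.6% of all genes on that side. EGR1 had log2 CPM of -0.37, 1.59 and 3.32 in Control and -0.37, 0.52 and 1.93 in treated tumors, and its log2 fold change was -1.21 and -1.04. KLF2, a flow-responsive factor, had -0.81 and -0.51, JUN -0.46 and -0.32, the ERK phosphatase DUSP5 -0.72 and -0.55, FOSL1 -0.62 and -0.28, and NR4A1 -0.71 and -0.53. Without Control r5, DUSP5 had -0.44 and -0.24, and without Control r4, EGR1 had -0.80 and -0.61. The median exon GC content of the list was 55.3%.

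Of 22 tested interferon-stimulated genes, 17 were above 0 in each fit, with medians of 0.18 and 0.16 (-0.0053 without Oxy186-treated r5 and without the correction). IFIT1, IFIT3 and MX1 had an unadjusted p under 0.05 in each, beside 1.85% and 3.3% of all genes on the higher side. MX1, an antiviral GTPase, had log2 CPM of 2.0, 2.27 and 3.24 in Control and 2.22, 3.01 and 4.90 in treated tumors, with a log2 fold change of 0.89 and 0.89. Averaged over the list, r5 had 1.05 relative to the Control mean, above every other tumor, and the other treated tumors ranged from -0.27 to 0.27. Without r5 the log2 fold changes were 0.37 for MX1, 0.48 for IFIT1 (in place of 0.93) and 0.42 for IFIT3 (in place of 0.50). IFITM1 and IFI16, which were not on the list, had 0.75 and 0.43 without r5.

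Of 16 tested genes of liver-type secreted proteins, which A549 cells express, 14 were above 0 without and 13 with the correction, with medians of 0.36 and 0.30. SERPINA1, the protease inhibitor α1-antitrypsin, had log2 CPM of 6.54, 7.43 and 8.19 in Control and 6.54, 8.71 and 9.43 in treated tumors, with 4 of 7 above every Control tumor. The group difference on the log2 scale was 1.10 (standard error 0.38) and 1.30 (standard error 0.40). The fibrinogen chain gene FGB had 0.61 and 0.47, and the plasma glycoprotein gene APOH 0.46 and 0.37. Of 15 tested mucin and secretory genes, 11 and 10 were below 0. Averaged over these genes, every treated tumor lay within the Control range in both fits. Without the correction treated tumors ranged from -0.73 to 0.33 and Control tumors from -0.94 to 0.50. The membrane mucin MUC1 had 6.63, 7.11 and 7.82 in Control and 5.01, 5.76 and 7.66 in treated tumors, with a log2 fold change of -0.78 and -0.64. SPDEF, a secretory cell factor, had -0.82 and -0.45, and MUC16 -0.46 and -0.45. Among lineage factors, SOX2 had 0.38 and 0.40 and FOXA3 -0.67 and -0.36.

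Among stress programs, 21 of 27 NRF2 targets were above 0 without and 23 with the correction, with medians of 0.14 and 0.13. Averaged over the 27 genes, the mean of the treated tumors was -0.01 without and 0.02 with the correction, relative to the Control mean. Without it treated tumors ranged from -0.42 to 0.29 and Control tumors from -0.40 to 0.41, so the groups overlapped. GCLC, which makes the first step of glutathione synthesis, had a log2 fold change of 0.33 and 0.23, and the epoxide hydrolase EPHX1 0.37 and 0.65. Of 28 ER stress and ATF4 genes, 21 and 20 were below 0. CEBPB and TRIB3 had -0.70 and -0.50 without and -0.15 and -0.20 with the correction. Of 17 heat shock protein genes, 12 and 14 were above 0, and HSPA1A, which shares nearly identical sequence with a neighbouring copy, had 0.58 and 1.06.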

How the data were processed

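The authors trimmed reads with Trimmomatic 0.39, aligned them with STAR 2.7.6a to a combined human (GRCh38.p13) and mouse (GRCm39) genome and kept human alignments. The deposited raw counts per human gene came from featureCounts (Subread 2.0.1), and the strand setting is not given in the sources used here. Deposited log2 CPM values, which hold 4 of the 7 Oxy186 libraries, were not used.

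Raw counts of the 14 libraries were filtered with filterByExpr, TMM-normalized and tested with edgeR 4.0.16 (quasi-likelihood, R 4.3.3, prior count 2 for log2 CPM), a count test in place of the limma voom the study used. For the GC correction, splines with 4 degrees of freedom on GENCODE 44 exon GC (a value for 99.8% of tested genes), fitted to genes above a mean log2 CPM minimum of 1, entered as offsets. limma 3.58.1 and DESeq2 1.42.0 were alternatives, and the edgeR step was tested on simulated data. Group means of slopes and scores were compared by exact permutation over 3432 splits. Named genes were, in each fit, the 10 per direction with the smallest p above that same minimum, and members of the lists. The comparison, lists and members were chosen with earlier results of these data known. Figures used python 3.11.15 and matplotlib 3.10.9.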

Additional observations from a re-analysis of the deposited data

Results flagged for a closer look

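Dixon's test for 1 sample far from the other 6 of its group was applied to 250 groups of 7 values. It marked 5, where chance alone marks about 1 in 20. AXIN2 had a log2 CPM of 1.96 in Oxy186-treated r3, with the next tumor at 3.26 and the highest at 3.98. IFIT3 had 2.14 in Control r6, with the next at 2.64 and the highest at 2.96. CEBPB had 5.19 in Control r7, with the next at 6.06 and the highest at 6.56. EPHX1 had 6.36 in Oxy186-treated r5, with the next at 7.47 and the highest at 8.22. SLCO1A2, an organic anion transporter gene, had 1.94 in Control r7, with the next at 1.01 and the lowest at 0.62, and its log2 fold change was 0.85 without and 0.72 with the GC correction. The number of marks is below that chance gives, and their cause was not tested.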

How the results depend on the processing

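No gene was called under any alternative without the GC correction. With it, DESeq2 called 1 (PRR34-AS1), and the other alternatives called none. The count at an unadjusted p under 0.05 without the correction was 1114 with limma voom, 3169 with limma voom and library quality weights, 2591 with no filter on low counts and 1003 with all 21 libraries in the fit. Most of these genes were lower in each limma voom fit and with no filter. With all 21 libraries slightly more were higher than lower. With the correction and no filter the count was 2742. With no filter the share of genes bounded within a 2-fold change, a measure chosen after seeing the data, was 37.1% without and 39.9% with the correction. Leaving out each tumor in turn gave counts from 329 (without Oxy186-treated r4) to 2547 (without Oxy186-treated r6) without the correction and from 655 (without Control r5) to 1403 (without Oxy186-treated r6) with it. Without the correction the count also moved by more than 1.5 times without Control r1 (386), r3 (413) or r5 (367), or Oxy186-treated r2 (393), r3 (358) or r7 (1050). The bounded shares then ranged from 77.5% to 83.9% and from 86.5% to 88.4%, the difference in GC slope from -0.327 to -0.162, and the difference in first component score from 26.5 to 47.2. The last was highest without Oxy186-treated r6 (exact permutation p = 0.0326, and at least 0.0746 with any other tumor left out). Same-numbered tumors did not deviate together (correlations from -0.42 to 0.04), and a fit with the replicate number as a block had 400 genes at an unadjusted p under 0.05 without and 610 with the correction. The causes were not tested.

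Of 6202 recomputed values of 122 named genes, 6156 kept their direction and 45 reversed. ABCA1 was 0.11 with limma voom, 0.032 with quality weights and 0.11 with the replicate block, and 0.0397 and 0.0393 with limma voom and the block after correction. Leaving out tumors it ranged from -0.24 to 0.34 without and from -0.28 to 0.26 with the correction. MT-CO1 was -0.012 with limma voom, -0.025 with no filter, -0.0043 with at least 10 counts in every library, -0.014 with the replicate block and -0.13 with the GC slope as a covariate. It was 0.0022 with a linear GC trend, and leaving out tumors it ranged from -0.117 to 0.0522 without the correction. With the GC slope as a covariate, AXIN1 was 0.0825, KLC2 0.23 and SMO 0.0057. With quality weights, EVPL was -0.0016, FAM207A -0.0815, RNF40 -0.015 and LRRC45 -0.0295, and LRRC45 was -0.0077 with limma voom. Leaving out tumors without the correction, KLC2 ranged from -0.18 to 0.0446, FAM207A from -0.0624 to 0.16, EVPL from -0.0714 to 0.18, RNF40 from -0.041 to 0.17, LRRC45 from -0.12 to 0.16 and NT5C from -0.0272 to 0.28. With the correction, GLI1 ranged from -0.30 to 0.0418 and PRR7 from -0.18 to 0.0361. Of 2040 recomputed list medians, 21 moved by more than 1 SD. Of the 40 lists, 15 without and 13 with the correction had a median that took the other sign under at least 1 alternative. The sign was kept in 11 of 24 alternatives for EGFR family genes and 15 of 24 for keratins without the correction, and in 17 of 27 for TGF-β targets with it.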

Other observations

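Of 11 tested replication-dependent histone genes, 10 were above 0 in each fit, with medians of 0.31 and 0.30. H4C14 had a log2 fold change of 1.11 without and 1.07 with the GC correction, and H2AC11 had 0.43 and 0.91. Without Oxy186-treated r1, H4C14 had 0.65 and 0.61 and H2AC11 had 0.018 and 0.41. Averaged over these genes, r1 had 1.24 relative to the Control mean and r6 and r7 had -0.42 and -0.32. All 6 tested metallothionein and zinc handling genes were above 0 in each fit, and MT1F had 0.28 and 0.53, the latter being 0.34 without Oxy186-treated r3. Of 11 epithelial keratin genes, 5 were above 0 without the correction and 11 with it. Their median with it was 0.21, and the median exon GC content was 57.5%.

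Of 31 proteasome subunit genes, 27 were above 0 without the correction and 19 with it, with medians of 0.05 and 0.06. Averaged over these genes without the correction, 4 of 7 treated tumors lay below the Control mean. Only r3, at 0.38, lay above every Control tumor. Of 15 tested HLA class I presentation genes, 10 and 9 were below 0. Of 20 tested TGF-β targets, 14 were below 0 without and 10 with the correction. Of 20 lysosome and sterol export genes, 12 and 11 were below 0, and the lysosomal protease CTSD had -0.79 and -0.59, with exon bases shared with genes on both strands. Of the 15 tested EMT genes, 9 were above 0 in each fit, and of the 15 tested EGFR family and ligand genes, 8 and 6. The medians of the lists of fatty acid synthesis, oxysterol-binding proteins, the BCL2 family, chemokines and cytokines, drug transporters, and nuclear long noncoding RNAs lay between -0.12 and 0.14 without and between -0.10 and 0.11 with the correction.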
